A study of Mus musculus with 12 samples.

Results

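The 12 arrays of this series formed a 2 by 2 design in which 2 adenoviral shRNAs were given singly and together, and all 12 entered one contrast per probe set. The contrast asked whether the 2 shRNAs added up in muscle outside the interferon response. It was the effect of the TSC22D4 virus in the presence of the Lipocalin13 virus minus its effect in the absence of that virus, on the log2 scale, and is called the interaction here. An interaction of 0 means that the 2 changes added up on that scale. A positive value means that the group with both viruses lay above the sum, and a negative value that it lay below. Of 25206 probe sets measured, 769 belonged to metabolic, contractile or stress genes on 26 lists that named 819 genes.

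All animals were db/db mice of the strain BKS.Cg-Dock7m +/+ Leprdb/J, in which the receptor for leptin is not functional, so that the animals are obese and diabetic. They were treated at 12 weeks of age and killed 1 week after receiving the virus. In each group 7 animals had been treated, and 3 that the submitters called representative were chosen for the arrays, by criteria that were not stated. The NC shRNA group (animals 18, 19 and 20) had received 4 dose units of control shRNA virus, a dose unit being 1e+09 plaque-forming units. The Lipocalin13 shRNA group (animals 21, 22 and 23) had received 2 units of LCN13 shRNA virus with 2 of control virus. The TSC22D4 shRNA group (animals 25, 26 and 27) had received 2 units of TSC22D4 shRNA virus with 2 of control virus. The Lipocalin13 + TSC22D4 shRNA group (animals 29, 30 and 32), called the double group here, had received 2 units of each target virus and 0 of control virus. A linear effect of the control virus dose therefore cancelled in the interaction. It did not cancel in the differences between 2 groups given here, because the dose of control virus differed in each of them. There, a target virus and less control virus cannot be told apart. An effect of that dose that was not linear would not cancel in the interaction either. In the interaction it cannot be told apart from a departure of the target viruses from additivity. RNA came from gastrocnemius, the large calf muscle, and no source used here gives the tissue that the virus reached. The lack of leptin receptor signalling and the adenoviral load were common to all 4 groups.

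An shRNA is a hairpin RNA that a cell turns into a small RNA against 1 transcript, here delivered by adenovirus. TSC22D4 belongs to the TSC22 proteins, regulators of transcription with a leucine zipper, and LCN13 is a small secreted carrier protein (lipocalin). Skeletal muscle takes up much of the glucose cleared after a meal, and it burns fatty acids between meals. Its contractile proteins come in slow and fast forms that mark fibre types. Glucocorticoids and FoxO transcription factors direct muscle towards protein breakdown, through ubiquitin ligases, the proteasome and the lysosome.

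The RNA was of fast skeletal muscle. Acta1, Ckm, Myh4 and Mylpf, a skeletal actin, muscle creatine kinase and 2 fast myosin chains, lay at or above the 99.8th percentile of every array. Neither target transcript was seen to be lost in this tissue. Tsc22d4 read 6.54, 6.43 and 6.79 in NC, 6.81, 7.00 and 6.62 in Lipocalin13, 6.87, 6.86 and 6.75 in TSC22D4, and 7.01, 6.72 and 6.71 in the double group (log2 level). It was not lower in either group that received its shRNA (TSC22D4 minus NC 0.24, adjusted p = 0.625, limma). Lcn13, which RefSeq lists as Obp2a, lay between 4.90 and 4.97 on every array, near the lowest value of the table.

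The interaction passed the test (limma, adjusted p below 0.05 over all probe sets) at 26 of 25206 probe sets, or 0.103%. It was positive at 21 (0.0833%) and negative at 5 (0.0198%). Interferon-induced genes accounted for 18 of the 26, all positive, out of 190 measured, with Herc6 (1.66), Znfx1 (0.82) and Parp14 (1.33) among those of smallest p. The other 8 lay off the interferon list, and none of them was among the 769 metabolic, contractile and stress genes. Of those 769 genes 0 passed (limma). The smallest adjusted p among them was 0.107, for Chrna1. At an unadjusted p below 0.05 there were 110 of the 769, or 14.3%, beside 9.58% of all probe sets. This excess depended on the setting. With the trend and robust options of eBayes the 110 became 86, and the 2414 of all probe sets became 2276. Over probe sets above the median level, which leaves out those near background, the counts were 73 and 1417. Fewer genes and probe sets were tested in that setting, so these counts are not shares of 769 and 25206. Of these 110 genes 54 had a positive interaction and 56 a negative one. The share of all probe sets was 4.05% for positive and 5.53% for negative values. By area, stress genes had 33 positive and 14 negative among 308, contractile genes 6 and 18 among 175, and metabolic genes 17 and 25 among 308.

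The precision of the interaction differed between gene sets. The listed genes had a median standard error of 0.117 for the interaction, against 0.0695 for all probe sets and 0.129 for the interferon list. The 95% interval of the interaction stayed within 1.5-fold on either side for 74.6% of the 769 genes and within 2-fold for 93.5%. Over all probe sets these shares were higher, 90.0% and 98.2%. Where the interval stayed within the stated fold, a larger departure from additivity lay outside it. Smaller departures could lie inside it. With 3 arrays in a group the number of arrays limits the precision.

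Among the 8 probe sets off the interferon list, 4 were named protein-coding genes that no list held. Mylip, a ubiquitin ligase that marks the low-density lipoprotein receptor for breakdown, had the largest interaction of these. It read 9.22, 9.24 and 9.28 in NC, 8.44, 8.62 and 8.71 in Lipocalin13, 8.94, 8.90 and 8.92 in TSC22D4, and 9.00, 9.15 and 8.95 in the double group. The Lipocalin13 arrays were the lowest and did not overlap with any other group, and NC was the highest. Mylip fell by 0.65 in Lipocalin13 against NC (adjusted p = 0.00299), and rose by 0.44 in the double group against Lipocalin13 (adjusted p = 0.0108). Both calls held without any 1 array. The sum of the 2 single effects would put the double group at 8.27, and it stood at 9.04. The interaction was 0.77 (SE 0.096, 95% interval 0.55 to 0.98, adjusted p = 0.0232, limma), a level 1.7 times that of the additive sum. Its call was lost without NC 18, NC 20, Lipocalin13 22, any of the 3 TSC22D4 animals, or double 29, with an adjusted p of 0.0569 to 0.0917.

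The other 3 named genes had negative interactions of a common shape. Med13, a subunit of the Mediator complex that links transcription factors to RNA polymerase, read 10.65, 10.64 and 10.67 in NC and 10.64, 10.63 and 10.64 in TSC22D4. It read 10.79, 10.79 and 10.72 in Lipocalin13 and 10.45, 10.47 and 10.48 in the double group. The TSC22D4 virus thus made no difference past the test alone (-0.02), whereas with the Lipocalin13 virus Med13 fell by 0.30 (adjusted p = 0.00281). Its interaction was -0.28 (SE 0.035, interval -0.36 to -0.21, adjusted p = 0.0232, limma), a level 0.822 times the sum. The call was lost without NC 18, Lipocalin13 21 or 22, any TSC22D4 animal, or double 29 or 32 (adjusted p 0.0567 to 0.0872). It was also lost with the trend and robust options of eBayes (adjusted p = 0.271) and over probe sets above the median level (adjusted p = 0.153).

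Kcnk15, a potassium channel, and Tas1r1, a subunit of the taste receptor for amino acids, also had Lipocalin13 highest and the double group lowest, at low levels. Kcnk15 read 5.66, 5.68 and 5.66 in NC, 5.89, 5.83 and 5.80 in Lipocalin13, 5.66, 5.64 and 5.67 in TSC22D4, and 5.51, 5.54 and 5.44 in the double group. Tas1r1 read 5.57, 5.51 and 5.59, then 5.66, 5.66 and 5.66, then 5.52, 5.59 and 5.58, and in the double group 5.40, 5.40 and 5.37. In both genes the double arrays were the lowest and the Lipocalin13 arrays the highest, with no overlap. The median of an array was 5.45, so neither gene was shown to stand above background. The interactions were -0.33 for Kcnk15 (SE 0.043, adjusted p = 0.0253) and -0.27 for Tas1r1 (SE 0.038, adjusted p = 0.0454, limma). The call of Kcnk15 was lost without NC 18 or 20, Lipocalin13 21 or 22, any TSC22D4 animal, or double 29 (adjusted p 0.0626 to 0.0981), and that of Tas1r1 without any array but NC 19 (0.0559 to 0.131). With the trend and robust options of eBayes the adjusted p was 0.0869 for Kcnk15 and 0.131 for Tas1r1, and over probe sets above the median level it was 0.110 and 0.187.

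**Figure D1:**
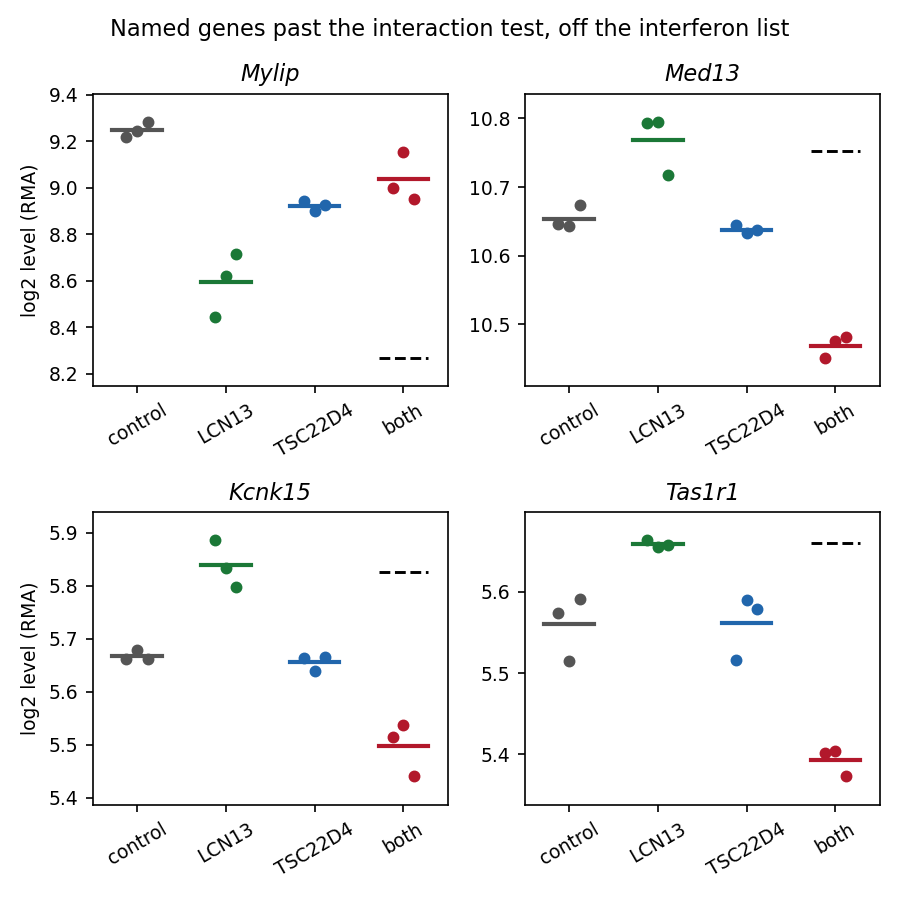
Log2 level (RMA) of Mylip, Med13, Kcnk15 and Tas1r1 on each array, by group (control is NC shRNA, both is the double group). Bars are group means and the dashed line is the level of the double group if the single effects added up on the log2 scale; for Mylip that line is at 8.27 and the double arrays lie between 8.95 and 9.15.

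The remaining 4 were named after their values were seen. A930016O22Rik and 4930431P03Rik had interactions of -0.52 and -0.33, with the double group lowest and Lipocalin13 highest as in Med13. The first lost its call without NC 18, any TSC22D4 animal or double 32 (adjusted p 0.0508 to 0.0722), and the second without any array but NC 19 or 20 (0.0557 to 0.0855). With the trend and robust options both lost it (0.0869 and 0.167). Gm20559 was at 9.41 in NC, 8.27 in Lipocalin13, 8.22 in TSC22D4 and 8.46 in the double group (means, n = 3). It was thus lower than NC in Lipocalin13 (-1.14, adjusted p = 0.00184, limma) and in TSC22D4 (-1.19, adjusted p = 0.00144, limma). In the double group it was no lower than in these (interaction 1.38, SE 0.158, adjusted p = 0.0188, limma). NC also had the most control virus, and that difference cannot be told apart from the target viruses in the falls against NC. Its interaction lost the call without NC 18 or any TSC22D4 animal (adjusted p 0.0514 to 0.0683). A probe set that carries no gene symbol here was at 10.05, 7.75, 7.39 and 6.88 in the same order (interaction 1.79, SE 0.176, adjusted p = 0.00945, limma), and it lost the call without TSC22D4 27 (0.0514). The annotation used here does not tell whether it belongs to an interferon-induced gene. Against NC it differed by -2.30 in Lipocalin13, -2.66 in TSC22D4 and -3.17 in the double group. Herc6, on the interferon list, differed by -1.74, -1.78 and -1.86.

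The next 16 genes by p that were off the interferon list had an adjusted p of 0.0651 to 0.102 (limma) and none was on a metabolic, contractile or stress list. Rabl3, a small GTPase-like protein, was first, with means of 7.45 in NC, 7.73 in Lipocalin13, 7.82 in TSC22D4 and 7.51 in the double group (interaction -0.59, SE 0.093). Each virus alone went with a higher mean and both together with one near NC. Tollip, an adaptor of Toll-like receptor signalling, had means of 9.79, 9.27, 9.65 and 9.72 (interaction 0.58, SE 0.097), with Lipocalin13 the lowest as for Mylip. Slfn3, a Schlafen family gene, had means of 6.22, 5.52, 5.33 and 5.36 (interaction 0.73, SE 0.125), with NC above the 3 target virus groups. Of the 16 genes, 7 had a positive interaction and 9 a negative one.

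Stress genes held the largest interactions of the listed genes, although none passed the test. The 33 glucocorticoid targets had a median interaction of 0.29, beside a median of -0.0033 over all probe sets, with 29 positive and 4 negative members. Of the 33, 7 had a positive interaction at an unadjusted p below 0.05 and 0 a negative one. The NC mean was the highest of the 4 groups in 21 of the 33 (63.6%), and in 24.8% of all probe sets. Against NC the median difference of the list was -0.16 in Lipocalin13, -0.18 in TSC22D4 and -0.10 in the double group, where adding up the single groups would give a larger fall. These 3 values share the NC arrays.

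Ddit4, which restrains the growth kinase mTOR under stress, had the largest interaction of all listed genes. It read 8.11, 8.41 and 8.19 in NC, 6.53, 6.37 and 6.88 in Lipocalin13, 5.96, 6.66 and 7.68 in TSC22D4, and 7.27, 7.21 and 6.85 in the double group. Every array with a target virus lay below every NC array, and the TSC22D4 arrays were widely spread. The interaction was 1.99 (SE 0.496, 95% interval 0.88 to 3.10, adjusted p = 0.208, limma), so it did not pass over all probe sets. With Ddit4 at 5.12 under additivity, the measured mean of 7.11 was 3.97 times higher on the linear scale. Without TSC22D4 27, the highest of its group, the adjusted p was 0.0651.

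Trim63, a ubiquitin ligase that tags sarcomere proteins, was low in 1 group only. It read 11.08, 10.75 and 10.71 in NC, 9.87, 10.25 and 10.18 in Lipocalin13, 10.83, 10.61 and 10.59 in TSC22D4, and 10.71, 10.76 and 10.69 in the double group. The Lipocalin13 arrays did not overlap with the others, and the other 3 groups did overlap. Trim63 fell by 0.75 in Lipocalin13 against NC (adjusted p = 0.025) and rose by 0.62 in the double group against Lipocalin13 (adjusted p = 0.0256). The first call was lost without NC 18, NC 20, Lipocalin13 21 or 23 (adjusted p up to 0.0669), and the second without Lipocalin13 21, double 29 or double 32 (up to 0.0651). The interaction was 0.79 (SE 0.170, interval 0.41 to 1.17), and it did not pass (adjusted p = 0.146, limma).

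The promoter of Trim63, which stood on both the glucocorticoid and the FoxO list, is the only one shown. These are the 250 bases before its start, chr4:134314870-134315119 on the forward strand of GRCm38.p6, from RefSeq, written 5′ to 3′. The capitals mark a match to AGAACA, 3 free bases and TGT, a form of the glucocorticoid receptor element, that begins 206 bases before the start, followed directly by a match to GTAAACA, the FoxO motif, at 194 bases before it.
Trim63: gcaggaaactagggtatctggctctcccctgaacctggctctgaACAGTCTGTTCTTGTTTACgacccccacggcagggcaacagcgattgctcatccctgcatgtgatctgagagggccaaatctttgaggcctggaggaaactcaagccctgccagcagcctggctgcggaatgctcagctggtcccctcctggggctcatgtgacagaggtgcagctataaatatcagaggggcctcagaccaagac
Both strands were searched, both matches lie on the reverse strand and they do not overlap. The first motif occurred in 0.429% of 27025 promoters of this length and in 3 of the 29 glucocorticoid targets with a promoter (Sgk1, Trim63 and Fam107a). The second occurred in 3.54% of them and in 2 of the 29 (Klf9 and Trim63). Only Trim63 had a match to both. Klf15, also on more than 1 of the stress lists, was not among the genes with a match. Among the 26 FoxO and atrophy genes with a promoter each motif occurred in 1 (3.85%), Trim63, which for the FoxO motif is close to the share of all promoters. A match describes the letters and does not show binding. Sgk1 and Fam107a, the other two with the first motif, had interactions of 0.25 and 0.15, both with an unadjusted p above 0.05.

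Klf15, a glucocorticoid-induced factor of amino acid breakdown, read 7.61, 7.65 and 7.67 in NC, 6.70, 7.13 and 7.06 in Lipocalin13, 7.31, 7.22 and 7.38 in TSC22D4, and 7.25, 7.00 and 7.13 in the double group. NC lay above all other arrays. Klf15 fell by 0.68 in Lipocalin13 (adjusted p = 0.0221) and by 0.52 in the double group (adjusted p = 0.0273) against NC, and the interaction was 0.49 (SE 0.148, adjusted p = 0.293, limma). Both falls lost their call without NC 18, 19 or 20, and the second also without double 30 or 32 (adjusted p up to 0.0913).

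Cebpd, a transcription factor of the acute response, came closest to a call under other settings. It read 6.16, 5.84 and 5.71 in NC, 5.33, 5.32 and 5.32 in Lipocalin13, 5.41, 5.48 and 5.48 in TSC22D4, and 5.50, 5.69 and 5.60 in the double group. The NC arrays were the highest, and several of the others were near the array median of 5.45. Its interaction of 0.72 (SE 0.134) had an adjusted p of 0.110 (limma). That became 0.0250 with the trend and robust options, 0.0488 over probe sets above the median level and 0.0496 without NC 20. Cebpd fell by 0.58 in Lipocalin13 against NC (adjusted p = 0.0277), a call lost without NC 19, any Lipocalin13 animal, or TSC22D4 26 or 27 (up to 0.0933). The additive sums of Cebpd (4.88) and Ddit4 (5.12) lay below the median of an array, near the lowest values of the table, and the part of that limit in their interactions was not tested.

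Glul, which makes glutamine from glutamate and ammonia, had an interaction of 0.59 (SE 0.140, adjusted p = 0.191, limma), with means of 11.44, 10.92, 11.23 and 11.29 in the order NC, Lipocalin13, TSC22D4 and double. Other glucocorticoid targets lay nearer to 0 beside their errors. Fkbp5 had an interaction of 0.48 (SE 0.324), Per1 0.11, Mt2 -0.02 and Pdk4 -0.09, each with an interval that included 0. Gadd45g (1.08, SE 0.413), Glul and Chac1 (1.82, SE 0.633) were singled out after their values were seen. Chac1, which degrades glutathione and is a target of ATF4, read 9.67, 9.26 and 9.91 in NC, 7.52, 9.07 and 8.07 in Lipocalin13, 9.51, 9.21 and 8.36 in TSC22D4, and 10.14, 9.26 and 8.96 in the double group. The Lipocalin13 and TSC22D4 arrays overlapped, and the adjusted p was 0.384 (limma).

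**Figure D2:**
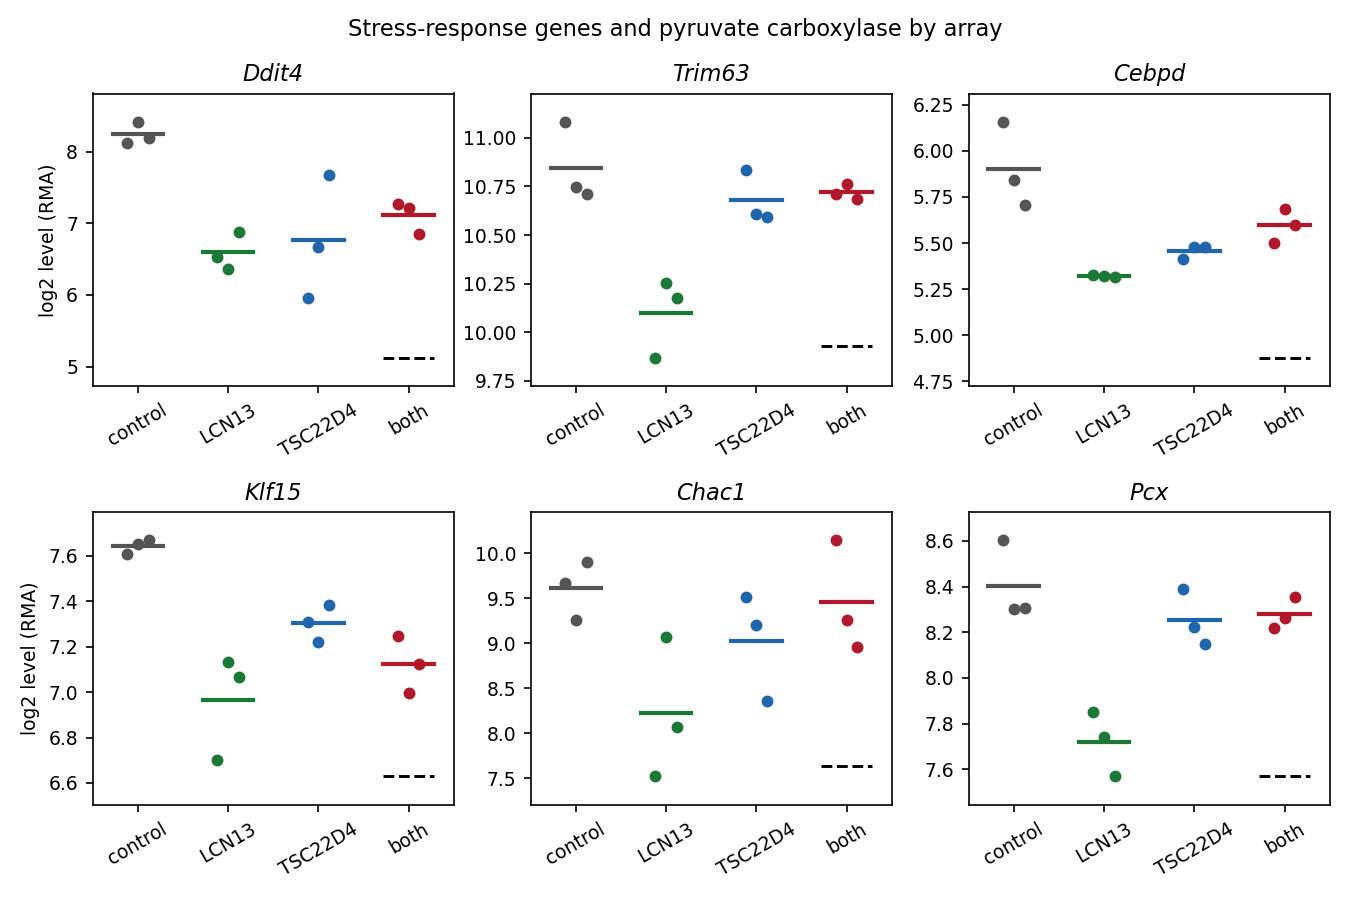
Log2 level (RMA) of Ddit4, Trim63, Cebpd, Klf15, Chac1 and Pcx on each array, by group, with bars at the group means. The dashed line is the additive sum for the double group. The 6 genes drawn all have positive interactions, and stress genes with negative ones, such as Atf4 and Fgf21, are not drawn. In these 6 panels the double arrays lie above the line, as for Ddit4 with a sum of 5.12 and arrays from 6.85 to 7.27. None of the 6 interactions passed the test.

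Protein breakdown lists had smaller positive medians, which moved with single arrays. The median interaction was 0.10 over 31 FoxO and atrophy genes, 0.09 over 30 proteasome genes and 0.06 over 40 autophagy and lysosome genes. At an unadjusted p below 0.05 the FoxO list held 5 positive members and 0 negative, the proteasome 8 and 0, and autophagy and lysosome 7 and 2. Without NC 18 these medians were 0.04, 0.03 and 0.03, and with the tendon score in the model 0.05, 0.03 and 0.01. The autophagy and lysosome median was 0.01 without double 30 and 0.12 without NC 19. The FoxO median was 0.06 without TSC22D4 25 and 0.07 without double 29, and the proteasome median 0.05 without Lipocalin13 21 and without double 29. Trim63, Klf15 and Ddit4 sit on more than 1 of the stress lists, so the lists are not independent. Fbxo32, the other classical ubiquitin ligase of muscle wasting, had an interaction of 0.30 (SE 0.271). Psmd1, a proteasome subunit, read 11.22, 11.20 and 11.19 in NC, 10.99, 11.05 and 11.01 in Lipocalin13, 11.12, 11.07 and 11.11 in TSC22D4, and 11.06, 11.04 and 11.05 in the double group. Its NC arrays were the highest and its spread was small. Psmd1 fell by 0.19 in Lipocalin13 (adjusted p = 0.00786) and by 0.15 in the double group (adjusted p = 0.00953) against NC, and the interaction was 0.14 (adjusted p = 0.191, limma).

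A pair of lysosomal enzymes had interactions of opposite sign. Ppt1, which removes fatty acids from proteins, read 9.46, 9.48 and 9.43 in NC, 9.84, 9.77 and 9.67 in Lipocalin13, 9.90, 9.94 and 9.93 in TSC22D4, and 9.99, 9.94 and 9.94 in the double group. NC was lower than every other array. Ppt1 rose by 0.47 with the TSC22D4 virus alone (adjusted p = 0.000791), by 0.30 with the Lipocalin13 virus alone (adjusted p = 0.0107) and by 0.50 with both (adjusted p = 0.000333), short of the sum. The interaction was -0.27 (SE 0.055, adjusted p = 0.136, limma), and without Lipocalin13 23 it was -0.31 with an adjusted p of 0.0483. The rise with the Lipocalin13 virus alone lost its call without NC 20 (adjusted p = 0.0504). Hexa, a subunit of the enzyme that degrades gangliosides, had an interaction of 0.40 (SE 0.082, adjusted p = 0.132, limma), with means of 9.97, 9.73, 9.82 and 9.99.

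The unfolded protein and integrated stress response showed no common direction. Of 47 genes 6 were positive and 2 negative at an unadjusted p below 0.05, with a median of 0.03. Atf4, the transcription factor of the integrated stress response, read 7.54, 7.57 and 7.58 in NC, 7.61, 7.58 and 7.63 in Lipocalin13, 7.53, 7.52 and 7.43 in TSC22D4, and 7.31, 7.39 and 7.26 in the double group. The double arrays were below all others. Atf4 fell by 0.28 when the TSC22D4 virus was added to the Lipocalin13 virus (adjusted p = 0.00716), a call that held without any 1 array, while alone the TSC22D4 virus gave -0.07 (adjusted p = 0.650). The interaction was -0.21 (SE 0.053, adjusted p = 0.205, limma). Pdia6, a protein disulfide isomerase of the endoplasmic reticulum, went the other way. It rose by 0.40 in the double group against Lipocalin13 (adjusted p = 0.0123), with a difference of -0.02 between TSC22D4 and NC and an interaction of 0.42 (SE 0.091, adjusted p = 0.146, limma). Fgf21, a hormone induced by ATF4, had an interaction of -0.22 (SE 0.048, adjusted p = 0.161, limma) at levels of 5.11 to 5.34, below the array median. Ddit3 (-0.43, SE 0.235), Atf3 (0.26, SE 0.343), and the chaperone genes Hspa5 (0.06) and Hspb1 (-0.05) had intervals that included 0. The immediate early list had a median of 0.14 over 39 genes (0.07 without Lipocalin13 21, 0.09 without TSC22D4 25 or double 29, 0.21 without double 32), with 4 positive and 1 negative at an unadjusted p below 0.05. Its best-known members Fos (0.44, SE 0.236) and Egr1 (0.59, SE 0.333) had intervals that included 0. Gadd45a, a DNA damage and denervation gene, had an interaction of 0.56 (SE 0.186, adjusted p = 0.338, limma). Heat shock genes had a median of -0.01 over 33 genes, and metallothionein and Nrf2 genes one of 0.04 over 37.

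**Figure D3:**
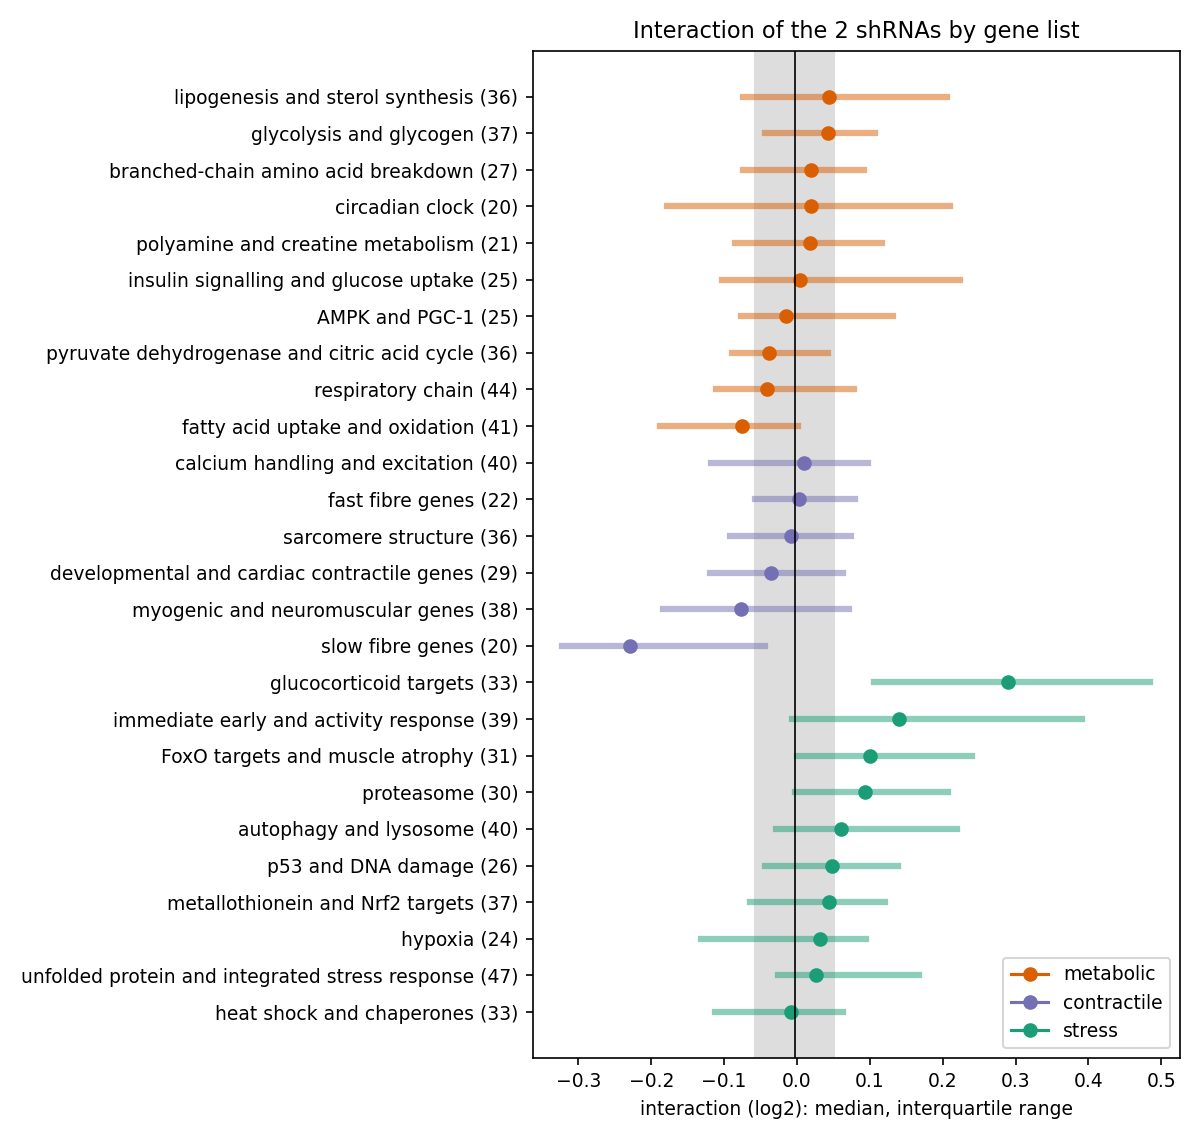
Interaction (log2) of the 26 lists of metabolic, contractile and stress genes, with the number of measured genes in brackets; points are medians and thick lines interquartile ranges over genes. The grey band and black line are the interquartile range and median (-0.0033) of all probe sets. Glucocorticoid targets have the highest median (0.29) and slow fibre genes the lowest (-0.23).

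Metabolic genes had a median interaction of -0.01 over 308 genes, and that of fatty acid uptake and oxidation was the lowest of their 10 lists, -0.08 (-0.14 without Lipocalin13 21). Of its 41 genes 30 were negative, 6 of them at an unadjusted p below 0.05, and 0 were positive at that level. In Lipocalin13 against NC the list had a median of 0.13, in TSC22D4 against NC 0.04 and in the double group against NC 0.06, again sharing the NC arrays. Acot2, a mitochondrial thioesterase, read 10.26, 9.80 and 10.27 in NC, 10.67, 11.11 and 11.08 in Lipocalin13, 10.15, 10.28 and 10.16 in TSC22D4, and 10.25, 10.56 and 10.30 in the double group. Only the Lipocalin13 arrays stood apart, above the rest. Acot2 was singled out after its values were seen, and its interaction was -0.67 (SE 0.213, adjusted p = 0.328, limma). Cd36, a fatty acid transporter, had means of 12.42, 12.71, 12.46 and 12.56 and an interaction of -0.20 (SE 0.061, adjusted p = 0.305). It rose by 0.30 in Lipocalin13 against NC (adjusted p = 0.0157, limma), a call lost without NC 18, or Lipocalin13 21 or 23 (up to 0.0651). Acadm, which starts the oxidation of medium-chain fatty acids, had an interaction of -0.21 (SE 0.045, adjusted p = 0.141, limma). Mlycd, which removes the malonyl-CoA that blocks fatty acid entry into mitochondria, had one of -0.33 (SE 0.080, adjusted p = 0.200). Mlycd fell by 0.37 in the double group against Lipocalin13 (adjusted p = 0.011), while TSC22D4 minus NC was -0.04.

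Pcx, the pyruvate carboxylase that refills the citric acid cycle, had the largest interaction on the list of pyruvate dehydrogenase and citric acid cycle genes. It read 8.60, 8.30 and 8.31 in NC, 7.85, 7.74 and 7.57 in Lipocalin13, 8.39, 8.22 and 8.15 in TSC22D4, and 8.22, 8.26 and 8.35 in the double group. The Lipocalin13 arrays were the lowest without overlap, as for Trim63, and the other groups overlapped. Pcx fell by 0.68 in Lipocalin13 against NC (adjusted p = 0.0157) and rose by 0.56 in the double group against Lipocalin13 (adjusted p = 0.0183). These calls were lost without Lipocalin13 23 (adjusted p = 0.0521) and without double 32 (0.0613). The interaction was 0.71 (SE 0.140, interval 0.40 to 1.02, adjusted p = 0.127, limma). The rest of that list went the other way at an unadjusted p below 0.05, with 5 negative members of 36, among them Sdhc (-0.22) and Pdha1 (-0.20), of which Pdha1 was picked after its value was seen. The list's median was -0.04.

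The respiratory chain had a median of -0.04 over 44 genes, with 3 positive and 6 negative members at an unadjusted p below 0.05. Cox6c, a subunit of cytochrome oxidase, had an interaction of -0.41 (SE 0.112, adjusted p = 0.255, limma), which became -0.51 with an adjusted p of 0.0446 without NC 19. Ppargc1a, the coactivator of mitochondrial gene expression, read 10.26, 10.38 and 10.42 in NC, 10.87, 10.93 and 11.04 in Lipocalin13, 10.61, 10.60 and 10.86 in TSC22D4, and 10.61, 11.15 and 10.62 in the double group. NC was lowest, and the double arrays overlapped with both single groups. The interaction was -0.49 (SE 0.192, interval -0.92 to -0.06, adjusted p = 0.449, limma). Ppm1k, the phosphatase that switches on breakdown of branched-chain amino acids, had an interaction of -0.58 (SE 0.138, adjusted p = 0.189), and Bckdha, a subunit of its target, one of 0.43.

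Glucose handling genes differed in sign. On the glycolysis and glycogen list 4 of 37 genes were positive and 2 negative at an unadjusted p below 0.05, and on the insulin and glucose uptake list 0 and 1 of 25. Pgk1, a glycolytic kinase that makes ATP, had an interaction of -0.31 (SE 0.108, adjusted p = 0.389), and Pfkp, the platelet form of phosphofructokinase, one of 0.31 (SE 0.110, adjusted p = 0.405, limma). Pdpk1, the kinase that activates AKT, had one of -0.20 (SE 0.073, adjusted p = 0.421), and Tbc1d4, which holds back glucose transporters until AKT acts on it, one of -0.48 (SE 0.221, interval -0.97 to 0.01). Slc2a4, the insulin-responsive glucose transporter, read 11.39, 11.50 and 11.43 in NC, 11.15, 11.25 and 11.14 in Lipocalin13, 11.42, 11.48 and 11.49 in TSC22D4, and 11.36, 11.27 and 11.39 in the double group. Lipocalin13 was lowest without overlap. The interaction was 0.14 with an interval of -0.01 to 0.28, which leaves out a departure of 1.5-fold. Hk2 (0.13, interval -0.16 to 0.43) and Pdk4 (-0.09, interval -0.55 to 0.37) likewise had intervals that included 0, as did Ucp3 (0.19) and Scd1 (0.22). The list medians were 0.00 for insulin signalling and glucose uptake (25 genes, 18 with an interval within 1.5-fold), 0.04 for glycolysis and glycogen (37) and 0.04 for lipogenesis and sterol synthesis (36). On the last list Thrsp, a regulator of lipogenesis, had an interaction of 0.37 (SE 0.128) and Fdps, of sterol synthesis, one of 0.23 (SE 0.078). On the AMPK and PGC-1 list the smallest p was that of Prkag2, a regulatory subunit of AMPK, with -0.32 (SE 0.085, adjusted p = 0.244, limma). The clock genes Dbp, Arntl and Per1 could not be judged. Dbp, a clock output factor, read 8.54, 10.10 and 9.94 in NC, 8.67, 10.35 and 10.24 in Lipocalin13, 9.72, 9.78 and 10.16 in TSC22D4, and 10.45, 10.26 and 9.21 in the double group. It varied as much within groups as between them, and its interval ran from -1.85 to 1.57. Arntl and Per1 had intervals as wide or nearly so, and 11 of the 20 clock genes had one within 2-fold. The hour at which the muscles were taken was not stated.

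Contractile genes had a median interaction of -0.03 over 175 genes, and slow fibre genes the lowest median of any list, -0.23. Of these 20 genes 16 were negative, 2 of them, Casq2 and Myl3, at an unadjusted p below 0.05. Myh7, the slow myosin heavy chain, read 11.11, 11.79 and 11.48 in NC, 10.99, 11.83 and 11.56 in Lipocalin13, 11.54, 11.86 and 11.48 in TSC22D4, and 11.59, 11.12 and 11.01 in the double group. The groups overlapped throughout. The interaction of Myh7 was -0.39 with an interval of -1.16 to 0.39 (adjusted p = 0.796, limma). Casq2, the calcium store protein of slow and cardiac muscle, had a tighter NC group. It read 10.11, 10.10 and 10.07 in NC, 10.38, 10.83 and 10.82 in Lipocalin13, 10.46, 10.78 and 10.53 in TSC22D4, and 10.85, 10.45 and 10.71 in the double group. NC was below all other arrays, and the 3 groups with a target virus overlapped. Its interaction was -0.51 (SE 0.194, adjusted p = 0.437, limma). NC held the lowest mean in 13 of the 20 slow fibre genes (65%), and in 23.1% of all probe sets. The median of the list was -0.37 without double 29, and -0.08 without double 32, -0.09 without NC 18, -0.10 without TSC22D4 26 and -0.12 without Lipocalin13 22.

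Fast fibre genes had interactions close to 0. The median was 0.00 over 22 genes, and all 22 intervals stayed within 2-fold. Myh4, the main fast myosin, had an interaction of -0.01 (interval -0.13 to 0.10), Tnni2, fast troponin I, 0.04 (-0.05 to 0.13), and Atp2a1, the fast calcium pump, 0.02 (-0.07 to 0.11). These 3 stood between 13.42 and 14.01 on every array, close to the highest value of the table, where a change may be compressed, and whether it was is not known. Among other contractile genes Ryr1, the calcium release channel, had 0.05 (interval -0.07 to 0.17), while Sln, a regulator of the calcium pump, could not be judged (-0.98 to 1.32). Ttn, the giant spring of the sarcomere, read 13.80, 13.83 and 13.82 in NC, 13.83, 13.83 and 13.78 in Lipocalin13, 13.87, 13.83 and 13.82 in TSC22D4, and 13.70, 13.70 and 13.70 in the double group. Only the double arrays were lower, and by little. The interaction was -0.14 (SE 0.033, adjusted p = 0.180, limma).

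Chrna1, the alpha subunit of the muscle acetylcholine receptor, had the smallest p of all 769 genes. It read 9.56, 9.49 and 9.45 in NC, 9.82, 9.85 and 9.70 in Lipocalin13, 9.72, 9.76 and 9.64 in TSC22D4, and 9.62, 9.61 and 9.45 in the double group. Each single group lay above NC without overlap, whereas the double group overlapped with NC. The interaction was -0.43 (SE 0.080, interval -0.61 to -0.25, adjusted p = 0.107, limma). Leaving out each array in turn kept the adjusted p between 0.0959 and 0.248. Myog, a regulator of the same receptor genes, had an interaction of -0.04 (SE 0.084). Schwann cell and nerve markers, which come with the nerve that ends on this receptor, are given beside it. Of 10 measured, 4 (Mag, S100b, Cnp and Gldn) had a positive interaction at an unadjusted p below 0.05 and 0 a negative one, and 4 of the 10 lay below the array median. Their score ran from -0.16 to -0.01 in NC, -0.03 to -0.01 in Lipocalin13, -0.11 to 0.04 in TSC22D4 and 0.00 to 0.25 in the double group, a contrast of 0.11, which was 0.05 without double 30 and 0.17 without double 29. Their part in the result was not tested. The myogenic and neuromuscular list had a median of -0.08 over 38 genes, with 3 positive and 5 negative at an unadjusted p below 0.05.

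**Figure D4:**
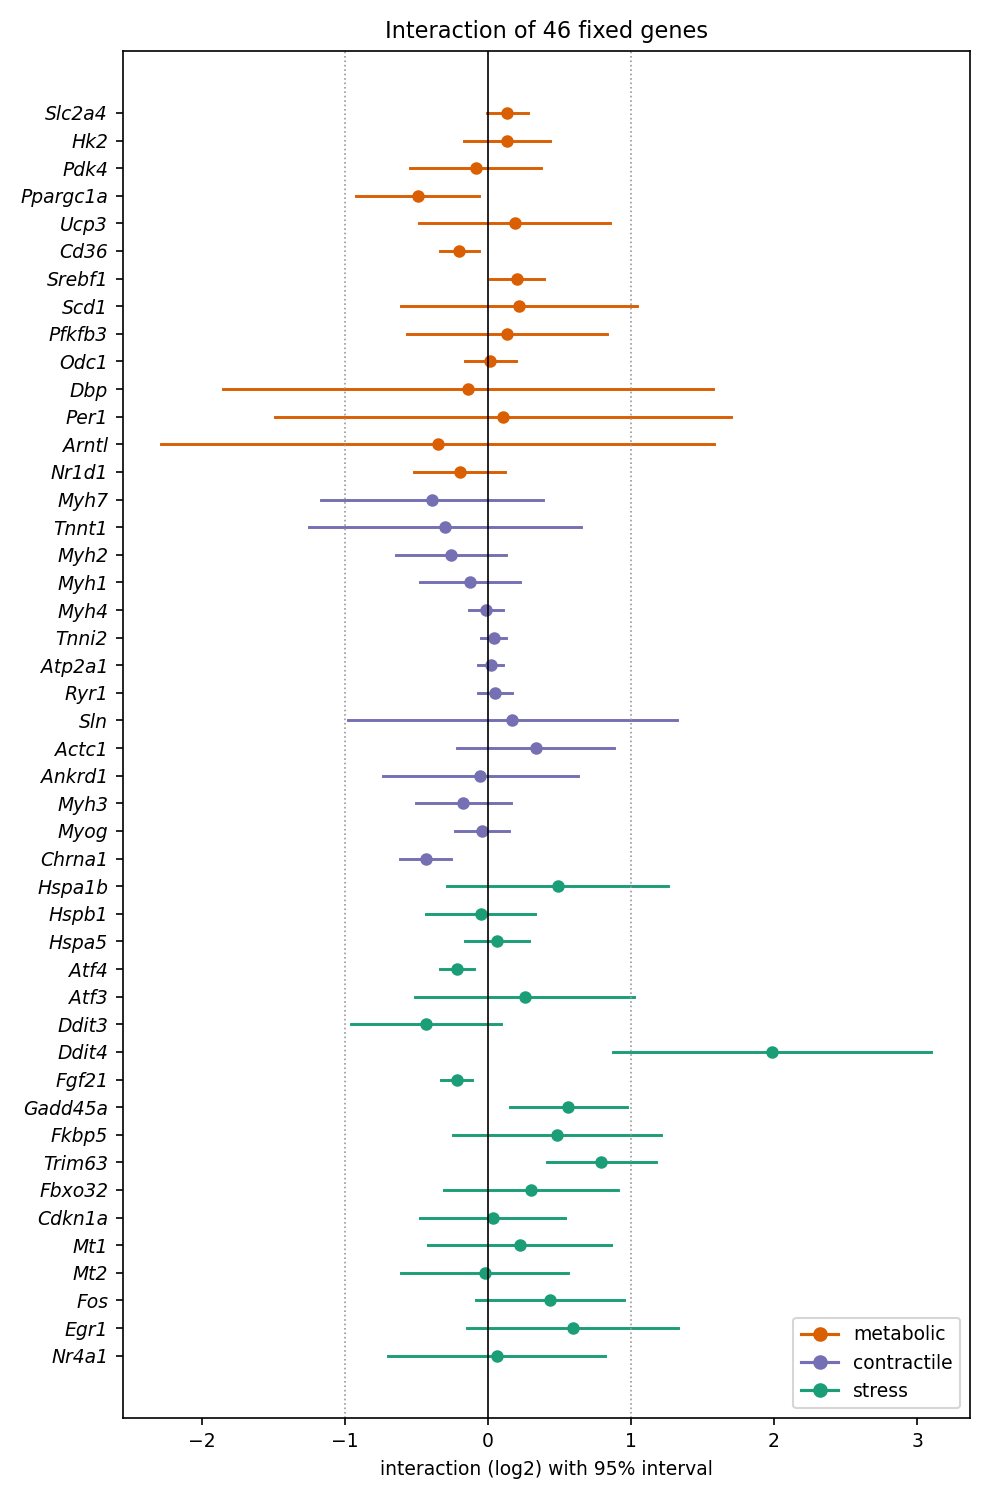
Interaction (log2, point) with its 95% interval (line) for 46 genes of the fixed naming list, coloured by area; dotted lines mark 2-fold. The interval includes 0 for 37 of the 46 and stays within 2-fold for 33, and none of the 46 passed the test over all probe sets.

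Genes that changed in the double group against NC were set against the additive sum. There were 46 of the 769 past the test (limma), beside 4.27% of all probe sets. Of these 19 were higher and 27 lower, beside 1.63% and 2.64%. The interval of the interaction was within 2-fold for all 46 and within 1.5-fold for 35, beside 98.2% and 90.0% of all probe sets. For 16 of the 46 the interaction had an unadjusted p below 0.05, beside 9.58% of all probe sets. The double and NC arrays that picked the 46 also enter the interaction, so these counts are not independent of the picking. Actc1, the cardiac actin of developing muscle, read 11.12, 11.30 and 11.52 in NC, 11.50, 11.60 and 11.72 in Lipocalin13, 12.10, 12.34 and 11.86 in TSC22D4, and 12.70, 12.41 and 13.06 in the double group. The double arrays were the highest. Actc1 rose by 1.41 with both viruses against NC (adjusted p = 0.00428). Its double mean was 12.73 where the additive sum was 12.39, and the interaction was 0.33 (interval -0.22 to 0.88). Tceal7, a regulator active in muscle regeneration, rose by 1.38 (adjusted p = 0.00644) with an interaction of -0.22 (interval -0.82 to 0.38). Gamt, the last enzyme of creatine synthesis, rose by 0.86 (adjusted p = 0.0092, limma) with an interaction of -0.21 (interval -0.61 to 0.19). Tceal7 and Gamt were picked after their values were seen. These 3 rises held without any 1 array. Ankrd1, a stretch-responsive muscle protein, had means of 7.87 in NC, 8.71 in Lipocalin13, 7.80 in TSC22D4 and 8.59 in the double group, with an interaction of -0.05 (interval -0.73 to 0.63).

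The effect of the TSC22D4 virus was read in each background from separate arrays. Without the Lipocalin13 virus (TSC22D4 minus NC), 1 of the 769 genes passed, Ppt1, which was higher, beside 0.286% of all probe sets in either direction, 0.0357% higher and 0.25% lower. With it (double minus Lipocalin13), 35 passed, beside 4.2% of all probe sets. Of these 13 were higher and 22 lower, beside 1.27% and 2.93%. Passing in 1 background and not in the other does not show a difference. The interaction passed for 0 of these 35 (limma), and 27 of them had an unadjusted interaction p below 0.05. The arrays of double minus Lipocalin13 enter the interaction too. Of the 22 lower genes 21 (95.5%) also had a negative difference without the Lipocalin13 virus, with medians of -0.28 with it and -0.07 without it. Of the 13 higher genes 8 (61.5%) had a positive difference in the other background, with medians of 0.40 and 0.06. The same held off the interferon list at large. Of 734 probe sets that fell, 83.0% had the same sign in the other background (medians -0.29 and -0.07), and of 311 that rose, 80.1% (0.30 and 0.08). The first median of each pair comes from probe sets chosen for passing in that comparison. The interaction was called at 6 of the 734 and 1 of the 311. Over the 769 genes the 2 differences had a Pearson correlation of 0.17 and a Spearman correlation of 0.23 across genes, which are not independent replicates. All calls of single comparisons rest on a spread pooled over 12 arrays. With only the 6 arrays of the 2 groups, the call count of double minus Lipocalin13 went from 1058 to 0, that of Lipocalin13 minus NC from 209 to 19, that of double minus NC from 1076 to 122 and that of TSC22D4 minus NC from 72 to 33. The order of the single viruses by calls against NC thus turned between these fits.

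**Figure D5:**
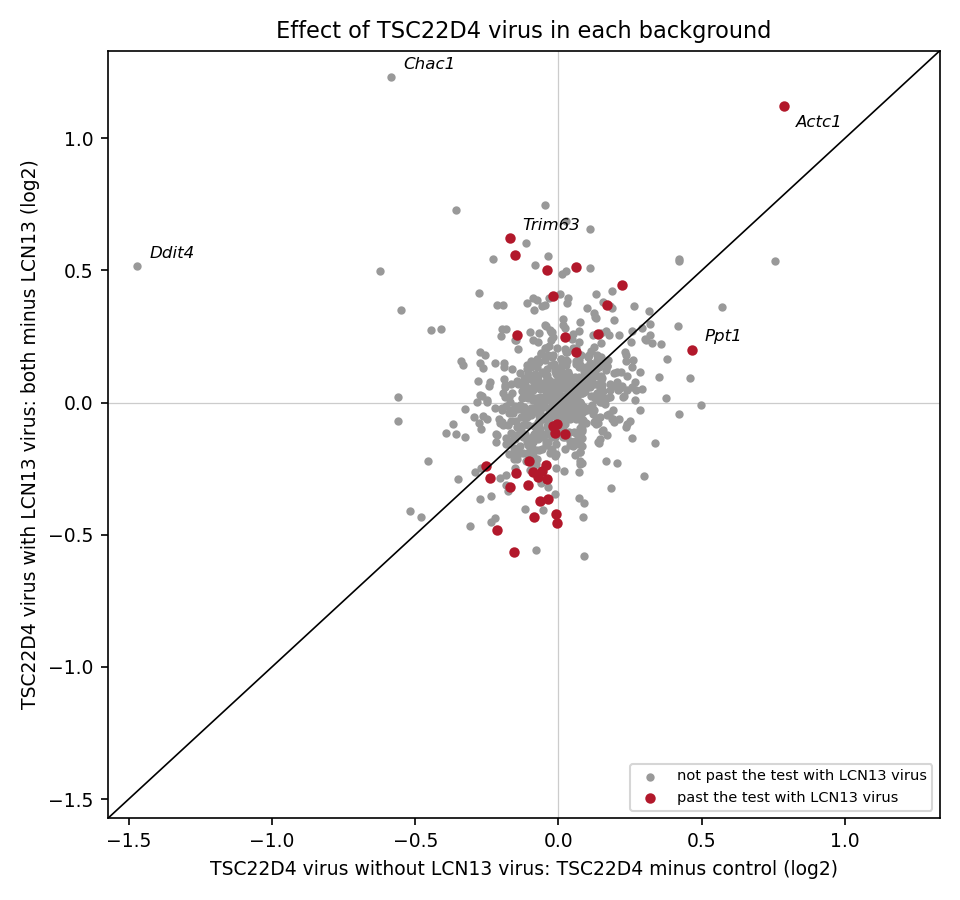
Difference of the log2 level made by the TSC22D4 virus without (x axis, TSC22D4 minus control) and with (y axis, both minus LCN13) the Lipocalin13 virus, one point per gene of the 769; control is NC shRNA and LCN13 the Lipocalin13 group. Red points passed the test with the Lipocalin13 virus (35 genes), and the diagonal line is equal effect; Ddit4 lies farthest from it.

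The Lipocalin13 virus was also read in each background. In Lipocalin13 minus NC 16 of the 769 passed, beside 0.829% of all probe sets. Of these 3 were higher and 13 lower, beside 0.226% and 0.603%. In the double group minus TSC22D4 0 passed (limma), with 108 of the 769 at an unadjusted p below 0.05. Of all 25206 probe sets 0 (0%) passed in that comparison, and 2637 (10.5%) had an unadjusted p below 0.05. All 3 higher genes, and 9 of the 13 lower ones (69.2%), had the same sign in that second comparison, which used separate arrays. The same sign was as common off the interferon list at large, in 73.7% of 57 higher and 71.4% of 84 lower probe sets. Among the 110 listed genes with an unadjusted interaction p below 0.05, the group whose mean lay farthest from the other 3 was Lipocalin13 in 46 (41.8%), NC in 32, the double group in 24 and TSC22D4 in 8. In those 46 the Lipocalin13 mean lay below the others in 30. Off the interferon list at large the shares were 36.3% for Lipocalin13, 39.9% for the double group, 16.1% for NC and 7.67% for TSC22D4.

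Scores of other cell types differed between the groups as well. A score, the mean deviation of a list's genes from their 12-array means, ran for 6 tendon genes from -1.06 to 0.11 in NC, 0.14 to 0.44 in Lipocalin13, -0.37 to 0.31 in TSC22D4 and 0.05 to 0.48 in the double group. For 20 fibroblast and matrix genes it ran from -0.77 to -0.17, 0.03 to 0.27, -0.28 to 0.23 and -0.09 to 0.62. The contrast of these scores was -0.61 and -0.35, the same sign as that of the slow fibre genes. All 6 tendon and all 20 fibroblast genes lay above the array median, and none of the 26 had an interaction at an unadjusted p below 0.05. Their part in the results was not tested, beyond the values with the score in the model. For 8 red cell genes, 4 of them below the array median, the score ran from -0.31 to -0.04, -0.32 to -0.19, -0.02 to 0.20 and 0.08 to 0.65, with a contrast of 0.26. For 23 hepatocyte genes, 11 below the array median, the score ran from -0.31 to 0.01, -0.09 to 0.88, -0.32 to -0.18 and -0.29 to 0.47, with a contrast of -0.24 that was 0.02 without Lipocalin13 22. For 18 macrophage genes, 3 below the array median, it ran from -0.15 to 0.00, -0.24 to 0.04, -0.08 to 0.04 and 0.01 to 0.52, with a contrast of 0.22 that was 0.06 without double 30. With each array left out in turn, the contrast of the tendon score ran from -0.98 (without NC 19) to -0.40 (without NC 20). That of the fibroblast score came nearest to 0 without double 29 (-0.14) and was -0.21 without NC 18. That of the red cell score was 0.11 without double 29, 0.17 without NC 18 and 0.39 without double 30. Fewer cells of a type and less RNA per cell cannot be told apart in bulk tissue. With the tendon score in the model the median of slow fibre genes was -0.13, that of fatty acid genes -0.12, that of glucocorticoid targets 0.30 and that of proteasome genes 0.03. Of the 8 probe sets off the interferon list, the 4 named genes and the 3 predicted ones lost their call in that model.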

How the data were processed

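Gastrocnemius RNA of 12 mice was hybridised to 1-colour Affymetrix arrays, 1 array per animal. The deposited values are log2 levels that the authors made with RMA, per the submitters' processing notes, which corrects the background, normalizes by quantiles and summarises probes. No source used here gives the RMA version, how probe sets were defined, or a genome build. The values have no counts behind them, so there is no depth, and precision rests on the number of arrays.

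All 25206 probe sets entered one limma 3.58.1 fit (R 4.3.3) of 4 group means, with eBayes and Benjamini-Hochberg adjustment over all probe sets. The interaction was double minus Lipocalin13 minus TSC22D4 plus NC, and 5 further differences between groups came from the same fit, which makes 6 comparisons. The threshold was an adjusted p of 0.05. Every adjusted p in the text comes from limma. With 8 residual degrees of freedom and a prior of 1.69, the spread was shared by all groups. All replicates are separate animals. The script was tested on simulated data. Symbols came from the platform's annotation for 23185 probe sets, updated through RefSeq (GRCm38.p6).

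The gene lists, their members and the naming rule were chosen with earlier results of these data known. The rule took genes that passed off the interferon list, were on a fixed set, had 1 of the 2 smallest p of a list, or were among the 20 smallest p off the interferon list. The text names only a subset of these genes. Others are said to have been picked after their values were seen. Alternatives were each array left out, 1-symbol probe sets only, probe sets above the median level, unlogged values, quantile normalization, median centring, array weights, eBayes with trend and robust options, and a tendon, hepatocyte or red cell score as a covariate.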

Additional observations from a re-analysis of the deposited data

Results flagged for a closer look

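The effect of the TSC22D4 virus differed between the backgrounds without and with the Lipocalin13 virus, by the interaction test over all probe sets, for 11 named probe sets. Among interferon-induced genes, Herc6 differed by -1.78 without the Lipocalin13 virus (TSC22D4 minus NC) and by -0.12 with it (double minus Lipocalin13), an interaction of 1.659. Znfx1 gave -0.94 and -0.11 (interaction 0.825), and Parp14 gave -1.32 and 0.01 (interaction 1.33). Without TSC22D4 27 the adjusted p of Znfx1 was 0.0509 and that of Parp14 was 0.0514 (limma).

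Off the interferon list, Gm20559 gave -1.19 without the Lipocalin13 virus and 0.19 with it (interaction 1.375), and Mylip -0.32 and 0.44 (interaction 0.7681). The probe set without a symbol gave -2.66 and -0.87 (interaction 1.791). In the other five the difference appeared with the Lipocalin13 virus. A930016O22Rik gave -0.08 and -0.60 (interaction -0.5248), 4930431P03Rik -0.01 and -0.34 (interaction -0.3296), and Med13 -0.02 and -0.30 (interaction -0.2827). Kcnk15 gave -0.01 and -0.34 (interaction -0.329), and Tas1r1 0.00 and -0.27 (interaction -0.2675).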

How the results depend on the processing

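The interaction count of 26 was 53 over probe sets above the median level, 46 with the trend and robust options, 8 on unlogged values, 7 with the tendon score and 13 with the red cell score as a covariate, and 1 (without TSC22D4 27) to 50 (without NC 19) with 1 array left out. Among symbols outside the interferon list, the count of 7 (2 higher, 5 lower) was 10 (8 higher, 2 lower) over probe sets above the median level and 6 (all higher) with the trend and robust options. It was 2 on unlogged values, 0 with the tendon score (limma; 1801 probe sets at an unadjusted p below 0.05), 2 with the red cell score, and 0 (without NC 18, TSC22D4 26 or TSC22D4 27) to 15 (without NC 19) with 1 array left out. The count of 0 listed genes was 1 with either of the first pair of settings, and 0 to 1 with 1 array left out. With only the 6 arrays of the 2 groups, TSC22D4 minus NC went from 72 to 33, double minus Lipocalin13 from 1058 to 0, Lipocalin13 minus NC from 209 to 19 and double minus NC from 1076 to 122. With 1 array left out these ran from 38 to 104, 359 to 1431, 62 to 315 and 349 to 1176, and double minus TSC22D4 from 0 to 2. The cause of these shifts was not tested. Of 120 named genes, few of which were called, 22 changed sign in at least 1 setting while not past the threshold. Levels near the array median limit Kcnk15, Tas1r1 and Cebpd. No paired analysis was possible because the animal numbers differ between the groups.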
